A study of Mus musculus with 6 samples.

Results

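Genes of primary granules and early monocytic priming were followed in sorted mouse bone marrow cells: the 10 were Mpo, Elane, Prtn3, Ctsg, Ms4a3, Ly6c2, F13a1, Fcnb, Cst7 and Lyz2. They were taken by name, and each of the 10 had 1 probe set annotated to that symbol alone, out of 22180 genes measured in this way. The cells were LSK cells, negative for lineage markers and positive for Sca1 and cKit, the bone marrow fraction that holds stem cells and multipotent progenitors. Tifab KO arrays (3) came from mice that had received Tifab-/- marrow and Tifab WT arrays (3) from mice that had received Tifab+/+ marrow, with 3 mice in each group. The labels give the mice as 3 months old and name lethally irradiated Boy/J recipients (7.0 Gy, then 4.75 Gy after 3 hours), without settling the order of sort, transplant and age. They give neither how the allele was made nor whether donor cells alone were sorted. Tifab encodes a relative of the TRAF6 adaptor TIFA, and the comparison asks how transcripts of the sorted LSK cells differ between the Tifab KO and Tifab WT groups.

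Primary, or azurophil, granules form at the promyelocyte stage and store myeloperoxidase and a family of serine proteases that neutrophils and monocytes use against microbes. Their genes are switched on early, at low levels already in multipotent progenitors before a cell commits to the myeloid lineage, under factors such as PU.1, C/EBP proteins, RUNX1 and MYB. The monocytic genes among them (Ly6c2, F13a1) are expressed on the branch towards monocytes, though not there alone, as described with each gene below. In a bulk sort, fewer cells of a type and less RNA per cell cannot be told apart.

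All values are log2 signals of one probe set per gene as deposited, and levels of different genes are not compared. The 6 arrays had medians of 4.05 to 4.10 over the whole table and correlated at 0.975 to 0.986 across genes, which are not independent replicates. The Tifab probe set read 5.21, 5.12 and 5.26 in KO arrays and 4.99, 5.37 and 5.53 in WT arrays. It did not separate the groups, so every direction here rests on the labels. Among markers of the sort, Kit, the receptor behind the cKit gate, measured 9.52 ± 0.10 in KO and 9.59 ± 0.10 in WT arrays (SD, n = 3 each), and Cd34, a progenitor sialomucin, 10.55 ± 0.10 in KO and 10.42 ± 0.11 in WT arrays (SD, n = 3 each). The 8 measured lineage marker genes lay between 2.98 and 8.01 over all arrays, and Ly6a, the gene of Sca1, was not analysed here. The table holds no detection calls, so absence of a marker could not be read from it.

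To show the regulatory context of the genes on which the comparison turns, the 250 bases before the annotated start are given for the neighbouring protease genes Elane and Prtn3 and for the 3 genes with the lowest p (Ly6c2, Ctsg, F13a1). The sequences are from RefSeq on GRCm38.p6, 5′ to 3′ on the gene's strand. Capitals mark the letters GAGGAA or their reverse complement, a form of the site bound by PU.1 and other ETS factors. Other forms of that site were not searched, so a promoter without GAGGAA may still hold one. For Ly6c2 and F13a1, which have further annotated starts, the first one listed was used.
Elane (chr10:79886062-79886311, plus strand): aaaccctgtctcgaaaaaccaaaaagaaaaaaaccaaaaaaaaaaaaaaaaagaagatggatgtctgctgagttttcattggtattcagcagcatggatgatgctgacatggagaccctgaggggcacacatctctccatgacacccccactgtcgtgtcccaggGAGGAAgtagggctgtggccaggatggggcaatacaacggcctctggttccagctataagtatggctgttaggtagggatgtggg
Prtn3 (chr10:79879417-79879666, plus strand): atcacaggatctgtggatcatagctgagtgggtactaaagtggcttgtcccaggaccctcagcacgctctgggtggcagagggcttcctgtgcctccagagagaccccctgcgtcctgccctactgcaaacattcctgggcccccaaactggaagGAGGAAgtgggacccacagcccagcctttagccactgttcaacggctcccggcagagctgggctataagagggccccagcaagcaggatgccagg
Ctsg (chr14:56102575-56102824, minus strand): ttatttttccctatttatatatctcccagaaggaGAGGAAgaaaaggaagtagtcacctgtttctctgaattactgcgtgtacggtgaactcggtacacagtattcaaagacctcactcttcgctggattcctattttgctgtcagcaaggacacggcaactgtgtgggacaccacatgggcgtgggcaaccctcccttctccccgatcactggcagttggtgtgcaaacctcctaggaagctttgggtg
Ly6c2 (chr15:75111972-75112221, minus strand): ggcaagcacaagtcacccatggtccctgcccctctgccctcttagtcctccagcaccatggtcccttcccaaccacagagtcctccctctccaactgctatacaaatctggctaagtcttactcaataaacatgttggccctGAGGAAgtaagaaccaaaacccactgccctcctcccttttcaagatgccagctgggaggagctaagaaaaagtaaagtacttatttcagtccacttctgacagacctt
F13a1 (chr13:37050245-37050494, minus strand): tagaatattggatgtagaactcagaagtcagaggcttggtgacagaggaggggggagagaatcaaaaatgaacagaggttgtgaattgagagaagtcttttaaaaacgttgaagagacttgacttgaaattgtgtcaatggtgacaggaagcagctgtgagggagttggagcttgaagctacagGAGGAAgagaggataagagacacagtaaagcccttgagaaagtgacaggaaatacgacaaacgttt

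The starts of Prtn3 and Elane lie 6645 bases apart on chromosome 10, on the same strand. GAGGAA began 85 bases before the start of Elane and 95 bases before that of Prtn3. On either strand it was present before 6 of the 10 genes (Ctsg, Elane, F13a1, Ly6c2, Mpo and Prtn3), against 23.1% of 27025 promoters of the same length. Ms4a3, Fcnb, Cst7 and Lyz2 had no match of GAGGAA, and their sequences are not shown. TTNNGNAA, the letters searched for C/EBP factors, occurred before 6 of 10 genes (Cst7, F13a1, Fcnb, Ly6c2, Lyz2 and Ms4a3) and 36.9% of all promoters. TGTGGT, searched for RUNX factors, occurred before 4 of 10 (Cst7, Ctsg, Ly6c2 and Lyz2) and 14.2% of all promoters. AACNG, searched for MYB, occurred before 9 of 10 and 74.1% of all promoters, so it is common everywhere. Both strands were searched and matches of different motifs may overlap. These are matches of letters, no binding was measured, and a link between motifs and the differences between genotypes was not tested.

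Of the 10 genes, 7 had a higher mean in KO than in WT arrays (Ly6c2, F13a1, Elane, Ctsg, Ms4a3, Prtn3 and Mpo) and 3 a lower one (Fcnb, Cst7 and Lyz2), while a higher KO mean was found for 50.0% of all genes. None of the 10 passed an adjusted p of 0.05 in limma, and neither did any other gene (0.0% of 22180), so the differences below are given as values. At an unadjusted p under 0.05, 3 of 10 were higher in KO arrays (Ly6c2, Ctsg and F13a1), where 4.74% of all genes were, and 0 were lower, where 5.51% of all genes were. Without KO replicate 2 the count of higher genes was 5, with Elane and Prtn3 added, where 3.77% of all genes were higher. The count stayed at 3 without KO replicate 1 (3.51% of all genes) or WT replicate 2 (4.9%). F13a1 then gave way to Elane (without KO replicate 1) or Ms4a3 (without WT replicate 2). In the other direction, 1 gene (Fcnb) was lower without KO replicate 3, where the share of all genes lower was not counted. Every KO array lay above every WT array for 4 of the 10 (these 3 and Mpo), where this held for 7.75% of all genes, and below for none, where it held for 8.37%. The median log2 fold change of the 10 was 0.26, beside 0.00 over all genes. These counts describe a list chosen with earlier results of these data known, and carry no test of the list.

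**Figure D1:**
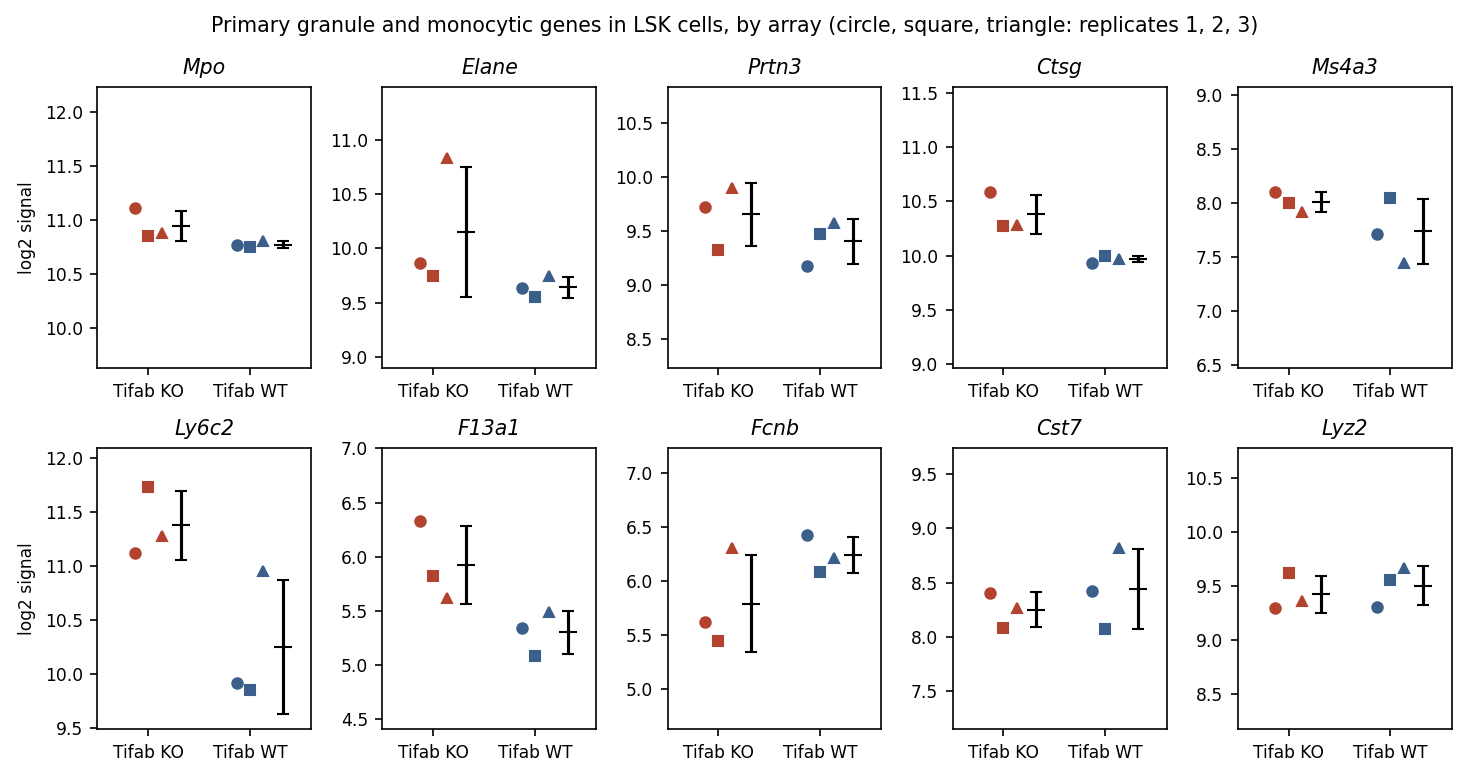
Log2 signal (y axis) of each gene in the 3 Tifab KO arrays (red, left) and the 3 Tifab WT arrays (blue, right), with the mean and SD of each group in black; every panel spans the same number of log2 units. The KO points of Ly6c2, Ctsg, F13a1 and Mpo all lie above the WT points, while Elane in KO replicate 3 (10.84) stands apart from the other KO arrays.

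Among the serine proteases of the azurophil granule, Ctsg, which encodes cathepsin G, had the lowest p. Ctsg measured 10.586, 10.270 and 10.284 in KO arrays, against 9.931, 9.997 and 9.973 in WT arrays. The 3 WT arrays lay within 0.07 of each other and all KO arrays lay above them. Its log2 fold change was 0.41 ± 0.10 (SE), a ratio of 1.33 with a 95% interval of 1.13 to 1.57 (adjusted p = 0.334 in limma). It stayed between 0.31 and 0.47 when any single array was left out.

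Elane encodes neutrophil elastase, the protease whose mutation causes cyclic and severe congenital neutropenia in humans. Elane measured 9.87, 9.75 and 10.84 in KO arrays, against 9.63, 9.55 and 9.75 in WT arrays. KO replicate 3 was far above the other 5 arrays, and KO replicate 2 lay level with WT replicate 3. The difference of 0.51 log2 units (SE 0.24, limma adjusted p = 0.505) came down to 0.16 without KO replicate 3.

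Prtn3, the gene of proteinase 3 and the immediate upstream neighbour of Elane among the genes described, had 9.72, 9.32 and 9.89 in KO arrays and 9.17, 9.47 and 9.57 in WT arrays. KO replicate 3 was again the highest array, but by a smaller step, and KO replicate 2 lay below WT replicates 2 and 3. The groups overlapped, with a log2 fold change of 0.24 ± 0.16 (SE, 95% interval -0.12 to 0.61), which was 0.41 without KO replicate 2 and 0.12 without KO replicate 3. In this array Elane was 0.94 above its own mean over the 6 arrays, Prtn3 0.37, Ctsg 0.11 and Mpo 0.02.

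Mpo encodes myeloperoxidase, the haem enzyme that makes hypochlorous acid and the most abundant protein of the granule. Mpo measured 11.11, 10.85 and 10.88 in KO arrays, against 10.77, 10.75 and 10.80 in WT arrays. The groups did not overlap, but KO replicates 2 and 3 lay just above the highest WT array. The log2 fold change was 0.17 ± 0.09 (SE, 95% interval -0.03 to 0.37, adjusted p = 0.532 in limma). It was 0.09 without KO replicate 1 and 0.07 after quantile normalization.

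**Figure D2:**
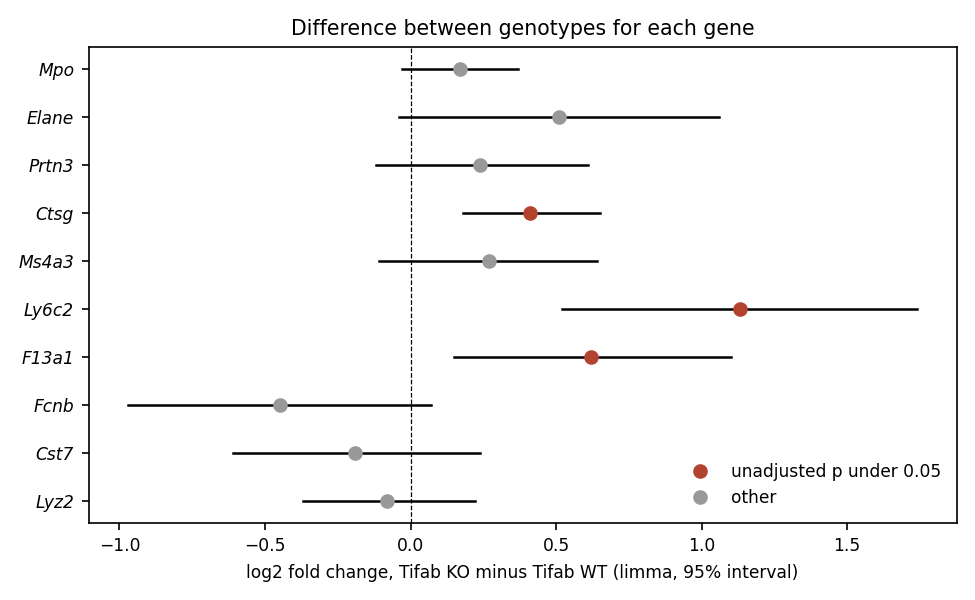
Log2 fold change (x axis, Tifab KO minus Tifab WT) with its 95% interval from limma for each gene; red points have an unadjusted p under 0.05 and the dashed line marks 0. The intervals of Ctsg, Ly6c2 and F13a1 lie to the right of 0, and those of the other 7 genes span it.

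Ly6c2, a GPI-anchored surface antigen carried by inflammatory monocytes and their progenitors, had the largest difference of the 10. Ly6c2 measured 11.12, 11.73 and 11.28 in KO arrays, against 9.92, 9.86 and 10.96 in WT arrays. The KO arrays all lay above the WT arrays, yet WT replicate 3 stood closer to the KO arrays than to the other WT arrays. The log2 fold change was 1.13 ± 0.27 (SE), a ratio of 2.19 with a 95% interval of 1.43 to 3.34 (adjusted p = 0.334 in limma). It was 1.49 (adjusted p = 0.0842 in limma) without WT replicate 3, and 0.93 without WT replicate 2. The probe set of the closely related gene Ly6c1 read 2.37, 3.00 and 2.09 in KO arrays and 3.40, 1.90 and 3.43 in WT arrays. Whether the Ly6c2 probes also bind Ly6c1 transcripts was not tested.

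Ly6C antigen is also carried by some lymphoid and plasma cells, so the lineage marker genes are given beside it. Over the 8 genes 3 were higher and 5 lower in KO arrays. At an unadjusted p under 0.05, 0 were called, where 4.74% of all genes were higher and 5.51% lower. The summed linear signal was 275 to 338 in KO arrays and 251 to 419 in WT arrays. The 3 with the smallest p were the T cell co-receptor gene Cd8a (log2 fold change -0.17), the B cell antigen gene Ms4a1 (-0.13) and the myeloid integrin gene Itgam (-0.15). Cd8a and Ms4a1 lay below the array medians of 4.05 to 4.10 in every array. Cd79a, a B cell receptor subunit, and Cd3e, a T cell receptor subunit, were looked up after values were seen. Cd79a measured 6.52, 7.39 and 7.25 in KO arrays, against 5.44, 6.51 and 8.01 in WT arrays. Cd3e measured 4.16, 4.80 and 4.69 in KO arrays, against 5.73, 4.68 and 3.80 in WT arrays. WT replicate 3, the WT array with the highest Ly6c2, was the highest array for Cd79a and the lowest for Cd3e and Cd8a. The part of these cells in the Ly6c2 difference was not tested.

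F13a1 encodes the A chain of coagulation factor XIII, a transglutaminase made by megakaryocytes and by cells of the monocyte lineage. F13a1 measured 6.33, 5.82 and 5.62 in KO arrays, against 5.34, 5.08 and 5.49 in WT arrays. The groups did not overlap, with the lowest KO array close to the highest WT array. The log2 fold change was 0.62 ± 0.21 (SE), a ratio of 1.54 with a 95% interval of 1.11 to 2.14 (adjusted p = 0.388 in limma). It was 0.42 without KO replicate 1, where the unadjusted p in limma was 0.07, and 0.51 without WT replicate 2, where it was 0.0567.

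Ms4a3 encodes a four-pass membrane protein whose expression marks granulocyte and monocyte progenitors. Ms4a3 measured 8.098, 8.005 and 7.917 in KO arrays, against 7.711, 8.053 and 7.448 in WT arrays. The KO arrays were close together and WT replicate 2 fell among them. The log2 fold change of 0.27 ± 0.17 (SE, 95% interval -0.11 to 0.64) was 0.43 without WT replicate 2 and 0.12 without WT replicate 3.

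The remaining 3 genes had lower KO means. Fcnb encodes ficolin B, a lectin that recognises microbial sugars and starts the complement cascade. Fcnb measured 5.62, 5.44 and 6.30 in KO arrays, against 6.42, 6.08 and 6.21 in WT arrays. KO replicates 1 and 2 lay below all WT arrays and KO replicate 3 among them. The log2 fold change was -0.45 ± 0.23 (SE, 95% interval -0.97 to 0.07), and without KO replicate 3 it was -0.71, with an unadjusted p of 0.00517 (adjusted p = 0.602 in limma).

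Cst7 encodes cystatin F, an inhibitor of the cathepsin C that activates granule proteases. Cst7 measured 8.40, 8.08 and 8.26 in KO arrays, against 8.42, 8.07 and 8.82 in WT arrays. Apart from WT replicate 3 the groups covered the same range, and the log2 fold change of -0.19 ± 0.19 (SE) was 0.00 without that array. Lyz2, the lysozyme gene of myeloid cells, had 9.29, 9.62 and 9.36 in KO arrays and 9.30, 9.55 and 9.66 in WT arrays. Its groups overlapped throughout, with a log2 fold change of -0.08 ± 0.13 (SE). The 95% interval ran from -0.37 to 0.22, and the value without WT replicate 3 was 0.00.

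**Figure D3:**
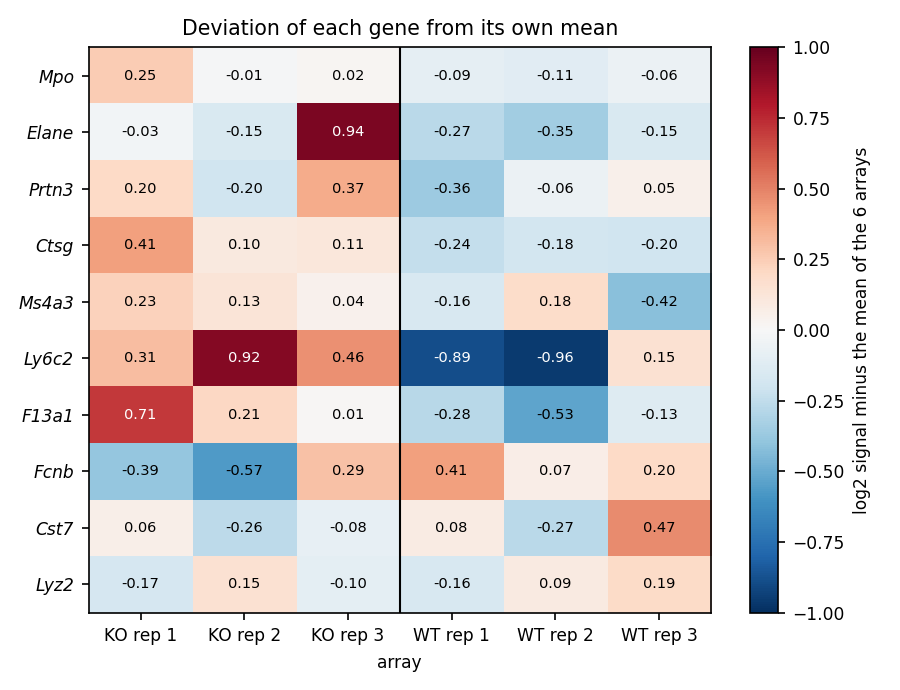
Deviation of each gene (rows) from its own mean over the 6 arrays (columns, Tifab KO on the left), in log2 units; red is above and blue below the mean. Red cells of the upper 7 genes lie mostly in the KO columns, with different KO arrays leading for different genes, while Fcnb, Cst7 and Lyz2 do not share that layout.

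The genes were not led by one array. KO replicate 1 was the highest of the 6 arrays for 4 genes (Mpo, Ctsg, Ms4a3 and F13a1), KO replicate 3 for 2 (Elane and Prtn3) and KO replicate 2 for 1 (Ly6c2). WT replicate 2 was the lowest array for 5 genes. Set against the mean profile of the other 9 genes over the 6 arrays, Prtn3, Ctsg, Mpo, F13a1, Ly6c2 and Elane had Pearson r of 0.58 to 0.73, Ms4a3 0.03 and Cst7 -0.03, and Lyz2 and Fcnb -0.27 and -0.50. These coefficients include the difference between genotypes and are descriptions over 6 arrays. Among 11080 other genes with a mean above the median of all genes, the profile most like the mean of the 10 was shared by Gm5566 and Cluh (r = 0.997 each), Rps24 (0.993), and Ric8b, 4930579K19Rik and Smtn (0.991 each). Cluh encodes a protein that binds mRNAs of mitochondrial proteins, and Rps24 a ribosomal protein; they had log2 fold changes of 0.33 and 0.23. With 11080 candidates and 6 arrays, coefficients of this size are a ranking only.

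**Figure D4:**
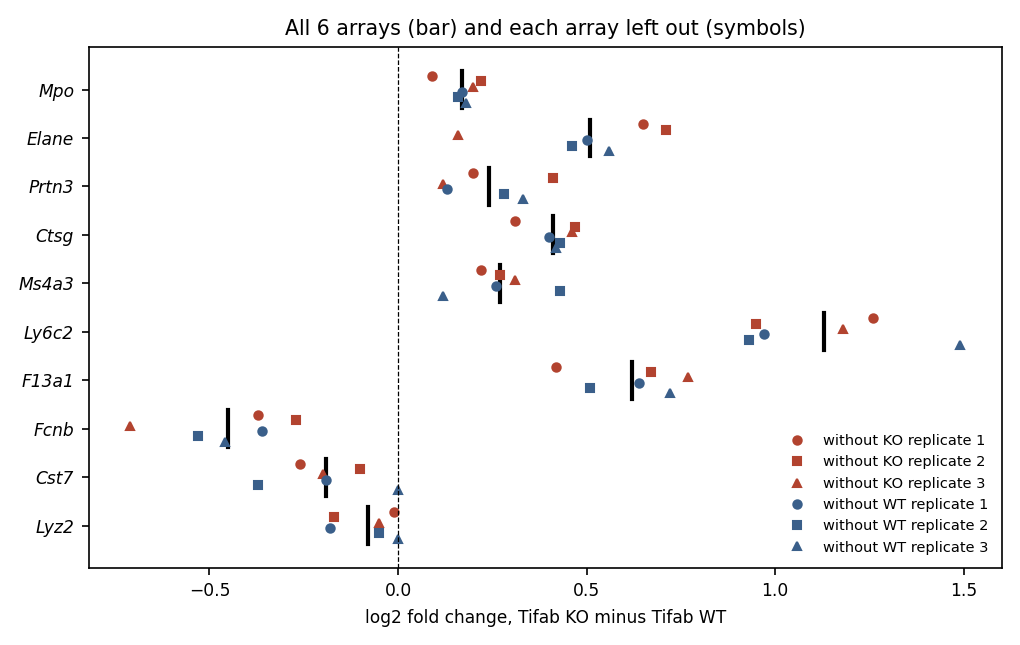
Log2 fold change (x axis, Tifab KO minus Tifab WT) of each gene with all 6 arrays (black bar) and with each array left out (symbols; red for a KO array, blue for a WT array). Ctsg stays between 0.31 and 0.47, whereas Elane drops to 0.16 without KO replicate 3 and Ly6c2 reaches 1.49 without WT replicate 3.

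Other proteins of the same granule, and the machinery that fills it, formed the nearest list for comparison. Of 16 measured granule companions, 10 were higher and 6 lower in KO arrays, with a median log2 fold change of 0.06 (0.00 with median centring). Median centring also moved the median of all genes, to -0.05, so list medians under it are to be read beside that value. With quantile normalization and cyclic loess, the other scalings, the median of all genes stayed at 0.00. At an unadjusted p under 0.05, 1 was higher, where 4.74% of all genes were, and 0 lower, where 5.51% were. The higher gene was Hexa, a subunit of the lysosomal hexosaminidase, at 0.37 ± 0.15 (SE). Ctsd, the aspartic protease cathepsin D, had 0.14 and Npc2, a lysosomal cholesterol carrier, 0.20. Ctsc, the cathepsin C that activates elastase, cathepsin G and proteinase 3, measured 6.62 ± 0.20 in KO and 6.54 ± 0.22 in WT arrays (SD, n = 3 each). Srgn, the proteoglycan serglycin that packs the proteases, measured 9.44 ± 0.05 in KO and 9.47 ± 0.04 in WT arrays (SD, n = 3 each). Serpinb1a, an inhibitor of these proteases, had a log2 fold change of -0.01 ± 0.13 (SE).

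Of 17 early myeloid factors and cytokine receptors, 13 were higher and 4 lower in KO arrays, with a median of 0.15 (0.09 to 0.13 under the 3 other scalings). Only Myb, which encodes a transcription factor of proliferating progenitors, had an unadjusted p under 0.05. It was higher in KO arrays, as were 4.74% of all genes at that p. Myb measured 10.21 ± 0.18 in KO and 9.91 ± 0.13 in WT arrays (SD, n = 3 each). WT replicate 3 lay above KO replicate 3, and the difference was 0.29 ± 0.12 (SE) with an adjusted p of 0.454 in limma. Csf3r, the receptor of G-CSF, had 0.26 and Il6ra, a receptor chain of interleukin-6, 0.35. Spi1, the gene of PU.1, measured 7.58, 7.31 and 7.50 in KO arrays and 7.07, 7.41 and 7.46 in WT arrays. Cebpa, the gene of C/EBP-alpha, measured 6.37, 5.97 and 6.23 in KO arrays and 5.22, 5.99 and 6.45 in WT arrays. For both factors the groups overlapped and WT replicate 1 was the lowest array. Irf8, a factor of the monocyte branch, measured 8.50, 7.72 and 8.03 in KO arrays and 7.62, 7.81 and 8.06 in WT arrays, with overlapping groups. The 4 genes lower in KO arrays were Cebpb (log2 fold change -0.39), Cebpd (-0.25), Csf2ra (-0.25) and Csf2rb (-0.01), all with overlapping groups. The C/EBP genes of the list thus went both ways, with Cebpa (0.30) and Cebpe (0.13) higher and Cebpb and Cebpd lower.

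Of 19 mature neutrophil genes measured, 4 were higher and 15 lower in KO arrays, with a median of -0.13 and -0.19 to -0.14 under the 3 other scalings; it was -0.05 without KO replicate 2 and -0.06 without WT replicate 1. At an unadjusted p under 0.05, 0 were higher, where 4.74% of all genes were, and 4 were lower, where 5.51% were. These were the gene of the interleukin-1 decoy receptor, Il1r2 (-1.33 ± 0.37, SE), Mmp8, which encodes a collagenase of neutrophil granules (-0.85 ± 0.24, SE), Ifitm6 (-0.65 ± 0.18, SE) and Cd177, a neutrophil surface antigen (-0.42). Il1r2 measured 3.58, 3.74 and 3.90 in KO arrays, below the array medians of 4.05 to 4.10. In WT arrays it measured 6.09, 4.64 and 4.48, with WT replicate 1 far above the other WT arrays. The summed linear signal of the 19 was 6663 to 8379 in KO arrays and 7040 to 8329 in WT arrays. None of the 4 passed the adjusted threshold in limma. The difference between this list and the 10 genes was not tested.

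Monocyte and macrophage genes were evenly divided, 9 higher and 9 lower of 18, with a median of -0.01 (-0.06 to -0.03 under the 3 other scalings). C1qa and C1qb, which encode 2 chains of the same complement protein, went opposite ways at 0.52 ± 0.17 and -0.51 ± 0.16 (SE). Adgre1, a surface antigen gene of macrophages, had 0.35, with all arrays at 3.20 to 3.82, below the array medians of 4.05 to 4.10. The summed signal of this list was 1559 to 1962 in KO arrays and 1569 to 2061 in WT arrays, and its part in the Ly6c2 and F13a1 differences was not tested.

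Of 10 basophil, eosinophil and mast cell genes, 1 was higher and 9 lower, with a median of -0.26. At an unadjusted p under 0.05, 3 were lower, where 5.51% of all genes were, and 0 higher, where 4.74% were. Prg2, the major basic protein of eosinophil granules, split the KO arrays, with 6.44, 9.65 and 6.38 in KO arrays and 9.62, 8.87 and 9.23 in WT arrays. The eosinophil peroxidase gene Epx, a relative of Mpo, followed it with 4.43, 5.80 and 4.42 in KO arrays and 6.13, 5.48 and 5.71 in WT arrays. Ms4a2, the beta chain of the high-affinity IgE receptor and a family member of Ms4a3, had -0.57 ± 0.22 (SE). Its arrays lay at 3.14 to 4.39, and only WT replicate 3 was above the array medians of 4.05 to 4.10. The summed signal of this list was 439 to 1268 in KO arrays and 851 to 1252 in WT arrays. KO replicate 2, the array with Prg2 and Epx at WT level, had the highest Ly6c2 and Lyz2 of the KO arrays. It was the lowest KO array for Elane, Prtn3, Mpo, Ctsg, Fcnb and Cst7. The step to the next KO array was small for Mpo (10.848 against 10.875) and Ctsg (10.270 against 10.284). For Ms4a3 and F13a1 it lay between the other KO arrays.

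Identity genes of LSK cells showed no common direction: 7 were higher and 4 lower of 11, with a median of 0.01 that was -0.05 to -0.02 under the 3 other scalings. At an unadjusted p under 0.05 in limma, 1 was higher (Meis1) and 1 lower (Hlf), where 4.74% of all genes were higher and 5.51% lower. For Meis1 every KO array lay above every WT array, where this held for 7.75% of all genes. For Hlf every KO array lay below every WT array, where this held for 8.37%. Neither gene passed the adjusted threshold. Meis1, a homeobox factor of stem cells, had 0.39 ± 0.13 (SE). Hlf, a factor of long-term stem cells, had -0.33 ± 0.13 (SE), and Flt3, the receptor of multipotent progenitors primed for lymphoid and myeloid fates, -0.24 ± 0.13 (SE). The summed signal of the list was 5272 to 5390 in KO arrays and 5130 to 5229 in WT arrays, so every KO array lay above every WT array in this sum. That was not particular to this list. The sum was 9122 to 9728 in KO and 6367 to 7963 in WT arrays for the 10 genes. For the early myeloid list it was 3274 to 3671 in KO and 2874 to 3234 in WT arrays. Such a sum is weighted towards the brightest genes of a list, and its share among all possible lists was not counted.

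**Figure D5:**
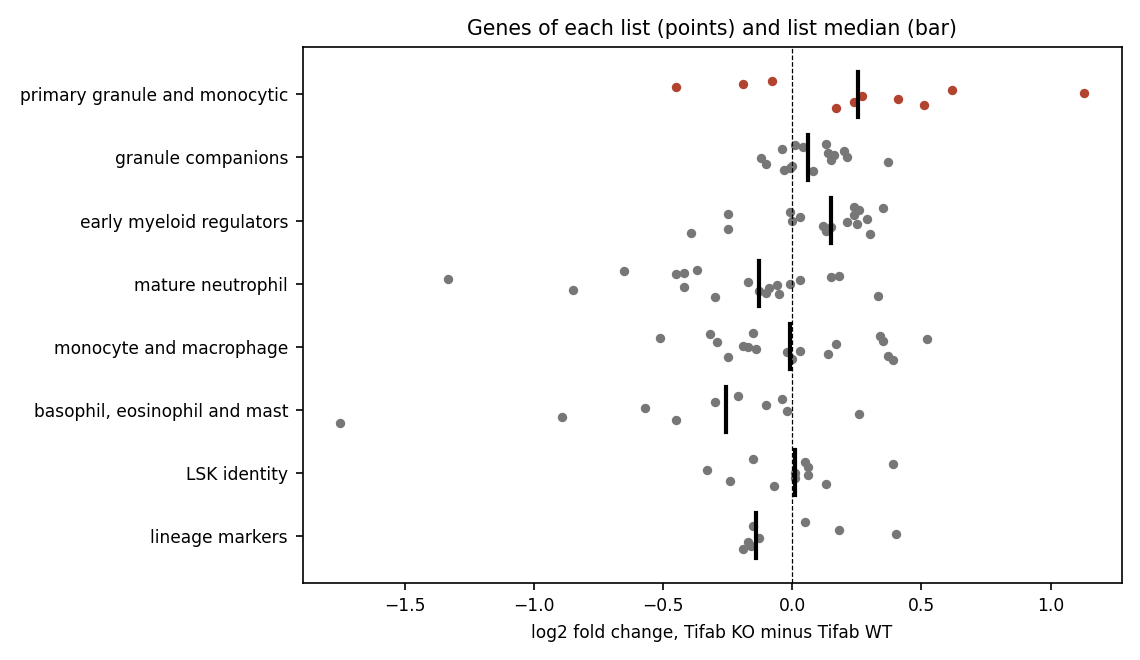
Log2 fold change (x axis, Tifab KO minus Tifab WT) of every measured gene (points) in the 10 primary granule and monocytic genes (red) and in 7 other lists (grey), with the median of each list as a black bar. The medians run from -0.26 for basophil, eosinophil and mast cell genes to 0.26 for the primary granule and monocytic genes.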

How the data were processed

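RNA of sorted LSK cells was hybridised to 6 Affymetrix MoGene 2.0 ST arrays, 1 per sample. The deposited table holds log2 probe set values, made with Affymetrix Expression Console per the submitters' processing notes. The background correction, summary, normalization and version used were not given in the sources used here. Array medians are nearly equal, so whole-array differences in RNA content cannot be seen.

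Of 41345 probe sets, 23521 had 1 symbol in the platform annotation, 1814 had several and 16010 were not listed. The probe set with the highest mean stood for each of 22180 genes. KO and WT arrays were compared with limma 3.58.1 in R 4.3.3 (lmFit, eBayes with intensity trend, genotype as the only term, two-sided, Benjamini-Hochberg over all genes, threshold 0.05), after the procedure was tested on simulated data. With 3 arrays a group, their number limits the precision. The members and lists were chosen with earlier results of these data known. The text names all 10 members, up to 3 genes per other list with the smallest p, markers of the sort and the 6 genes most like the mean profile. Cd79a, Cd3e, Cd177, Ctsc, Srgn, Serpinb1a, Spi1, Cebpa, Irf8, Cebpb, Cebpd, Cebpe, Csf2ra and Csf2rb were named after their values were seen. Alternatives are in the closing section. No pair of arrays was identical (0 pairs).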

Additional observations from a re-analysis of the deposited data

How the results depend on the processing

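With 14 alternatives for each value (eBayes without the trend, robust eBayes, quantile normalization, median centring, cyclic loess, without genes under the 40th percentile of signal, averaging all probe sets of a gene, a replicate block, and each array left out), 0 of the 10 genes passed the adjusted threshold in limma, with a lowest adjusted p of 0.0842 for Ly6c2 without WT replicate 3 (0.645 at the highest). The count higher at an unadjusted p under 0.05 was 3 to 5 with 1 array left out, and 5 without KO replicate 2, when Elane and Prtn3 joined. The share of all genes higher was 3.51% to 5.61% with 1 array left out (3.77% without KO replicate 2) and 3.03% to 5.73% otherwise. At a count of 3, Elane stood in place of F13a1 without KO replicate 1, and Ms4a3 in place of F13a1 without WT replicate 2. The count lower was 0 to 1, and 1 without KO replicate 3 (Fcnb). The share of all genes lower was not counted under the alternatives. The median of the 10 was 0.18 to 0.35 with 1 array left out. It was 0.20 to 0.21 under the 3 other scalings (quantile normalization, median centring and cyclic loess). The median of all genes was -0.05 with median centring and 0.00 with the other scalings. The eBayes settings, the signal filter, the averaging of probe sets and the replicate block cannot change a member's log2 fold change here. They left the median at 0.26 and are no check of it or of a sign. Over the single arrays left out Cst7 ran from -0.37 to 0.00 and Lyz2 from -0.18 to 0.00, both turning sign before rounding without WT replicate 3. The other 8 genes kept their sign with each array left out and under the 3 other scalings.

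No pairing by replicate number was seen: deviations of same-numbered arrays from their group means correlated at 0.02, -0.03 and -0.09. The labels do not say whether arrays were paired, and these values cannot settle it. With the replicate block the count higher was 4 (Elane joined), where 4.23% of all genes were higher. The median was 0.26, which a block cannot change in this balanced design. No member's probe set was averaged in any alternative, since each has 1. Over all genes, 1 passed the adjusted threshold in limma without KO replicate 2 and 1 without WT replicate 3, neither of them among the 10, and 0 passed under the remaining alternatives.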
